A study of Drosophila melanogaster with 9 samples.

Results

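The nuclear genes of the respiratory chain and the ATP synthase were examined in Drosophila S2 cells depleted of NELF, the negative elongation factor, a complex under which RNA polymerase II pauses shortly after it has started transcription. A gene was included where its symbol in the array's annotation began with ND- (complex I), Sdh (complex II), UQCR- (complex III), COX (complex IV) or ATPsyn (complex V, the ATP synthase). This gave 72 genes of 11573 that were named from a probe set with 1 gene: 31 of complex I, 7 of complex II, 6 of complex III, 14 of complex IV and 14 of complex V. A gene with more than 1 probe set is represented by its brightest, judged on the mean of all 9 arrays. The cells, an established macrophage-like line from embryonic hemocytes, fell into 3 groups of 3 arrays. One group had received double-stranded RNA (dsRNA) against NELF-B and NELF-E for 72 h, 1 had received dsRNA against the bacterial gene LacZ, which encodes beta-galactosidase, for 72 h, and 1 was untreated. The LacZ group serves as the mock control for dsRNA as such, and all groups grew in the same medium with 10% serum. Whether the arrays of a group stem from separate cultures is not stated, and the p-values therefore measure a spread between arrays that may be technical.

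The respiratory chain lies in the inner mitochondrial membrane. Complex I takes electrons from NADH and complex II takes them from succinate, both pass them to ubiquinone, complex III moves them on to cytochrome c, and complex IV hands them to oxygen. Complexes I, III and IV pump protons as they do so, and the ATP synthase makes ATP from the returning protons. All the complexes but complex II combine subunits encoded in the nucleus with subunits encoded in mitochondrial DNA, and only nuclear genes are described here.

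Values are log2 intensities, and one probe set's level says nothing about another's. A probe set was called detected on an array where it exceeded 3.77, the 95th percentile of 95 control probe sets. The arrays measured 13854 to 14196 probe sets each and detected 8010 to 8059. NELF-B read 4.76, 4.83 and 4.54 on the NELF dsRNA arrays, against 7.41, 7.47 and 7.63 on the LacZ dsRNA arrays (log2 change -2.79, SE 0.15, limma adjusted p = 2.97e-08). The second target, Nelf-E, was detected on 1 of 3 NELF dsRNA arrays and was at least 15.8-fold lower than under LacZ dsRNA. Both targets of the dsRNA were thus lower in the group labelled for them. Of 7 hemocyte markers, srp, ush and Pxn were detected on all 9 arrays, Hml and eater on 8, He on 3 and NimC1 on none. When NELF dsRNA was set against LacZ dsRNA, Pxn rose (log2 change 0.88, limma adjusted p = 0.000131) and eater fell (log2 change -2.66, limma adjusted p = 0.000685). Against untreated cells eater fell (log2 change -2.91, limma adjusted p = 0.000242) and srp rose (log2 change 0.34, limma adjusted p = 0.0357). Pxn did not pass there (log2 change 0.29, limma adjusted p = 0.182). The part of these markers in any other result was not tested. Of 10 measured markers of germline and testis, muscle, neuron and fat body, aly, can, dj, up and Fbp1 were never detected, bam, vas, Act88F and Lsp2 were detected on 1 to 4 arrays, and the neuronal gene elav was detected on all 9.

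The transcripts of the oxidative phosphorylation complexes stayed close to their control levels when NELF was depleted. Of the 63 genes with at least 2 values in each group, 1 rose and 0 fell in NELF dsRNA against LacZ dsRNA at a limma adjusted p under 0.05, where 4.56% of all 12975 probe sets tested were called, 1.85% higher and 2.71% lower. The gene that rose was SdhB, the iron-sulphur subunit of complex II. Among probe sets detected on all 9 arrays the called share was 7.82%, against 1 of 51 for these genes. In NELF dsRNA against untreated cells 0 of 62 genes passed, where 6.16% of 12973 probe sets were called, 2.63% higher and 3.53% lower. In LacZ dsRNA against untreated cells 0 of 63 passed, where 0.054% of 12974 were called, 0.0462% higher and 0.00771% lower. At an unadjusted p under 0.05 the counts of these genes were 5, 6 and 6 in the same 3 comparisons (7.94%, 9.68% and 9.52%), below the shares of all probe sets tested (14.9%, 17.6% and 10.4%). The comparisons share arrays: the NELF dsRNA arrays stand in both comparisons of NELF dsRNA, and each control group stands in the comparison between the controls as well.

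Of the 72 genes, 51 were detected on all 9 arrays (70.8%), against 38.7% of the 17899 probe sets that are not controls. Over these 51 genes the median log2 change was 0.021 in NELF dsRNA against LacZ dsRNA, with 32 genes above 0 and 19 below, against a median of 0.0064 over the 6929 probe sets detected on all 9 arrays. The median was -0.017 in NELF dsRNA against untreated cells and -0.036 in LacZ dsRNA against untreated cells, against -0.0017 and -0.017 over all detected probe sets. The changes ran from -0.17 to 0.36 against LacZ dsRNA, from -0.29 to 0.69 against untreated cells, and from -0.26 to 0.61 for LacZ dsRNA against untreated cells. By complex, against LacZ dsRNA the medians were 0.028 for complex I, 0.11 for complex II, -0.057 for complex III, -0.013 for complex IV and 0.012 for complex V.

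These measurements were tight enough to bound the changes. The median spread between arrays of a group (SD) was 0.079 for the 51 genes and 0.13 for all 6929 detected probe sets. The 95% interval of the change in NELF dsRNA against LacZ dsRNA lay within 1.5-fold in either direction for 51 of the 51 genes, against 78.1% of all detected probe sets. It lay within 1.25-fold for 46 genes (90.2%), against 39% of all detected probe sets. The intervals rest on a mean-variance trend, under which the estimated spread depends on brightness. Most of the 51 genes were brighter than the median probe set of an array. Their shares were not set against those of equally bright probe sets, and intervals without the trend are not given. In the comparisons with untreated cells, NELF dsRNA and LacZ dsRNA each gave 50 of 51 genes with an interval within 1.5-fold, and the exception both times was UQCR-11. With 3 arrays a group, the number of arrays limits the precision.

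**Figure D1:**
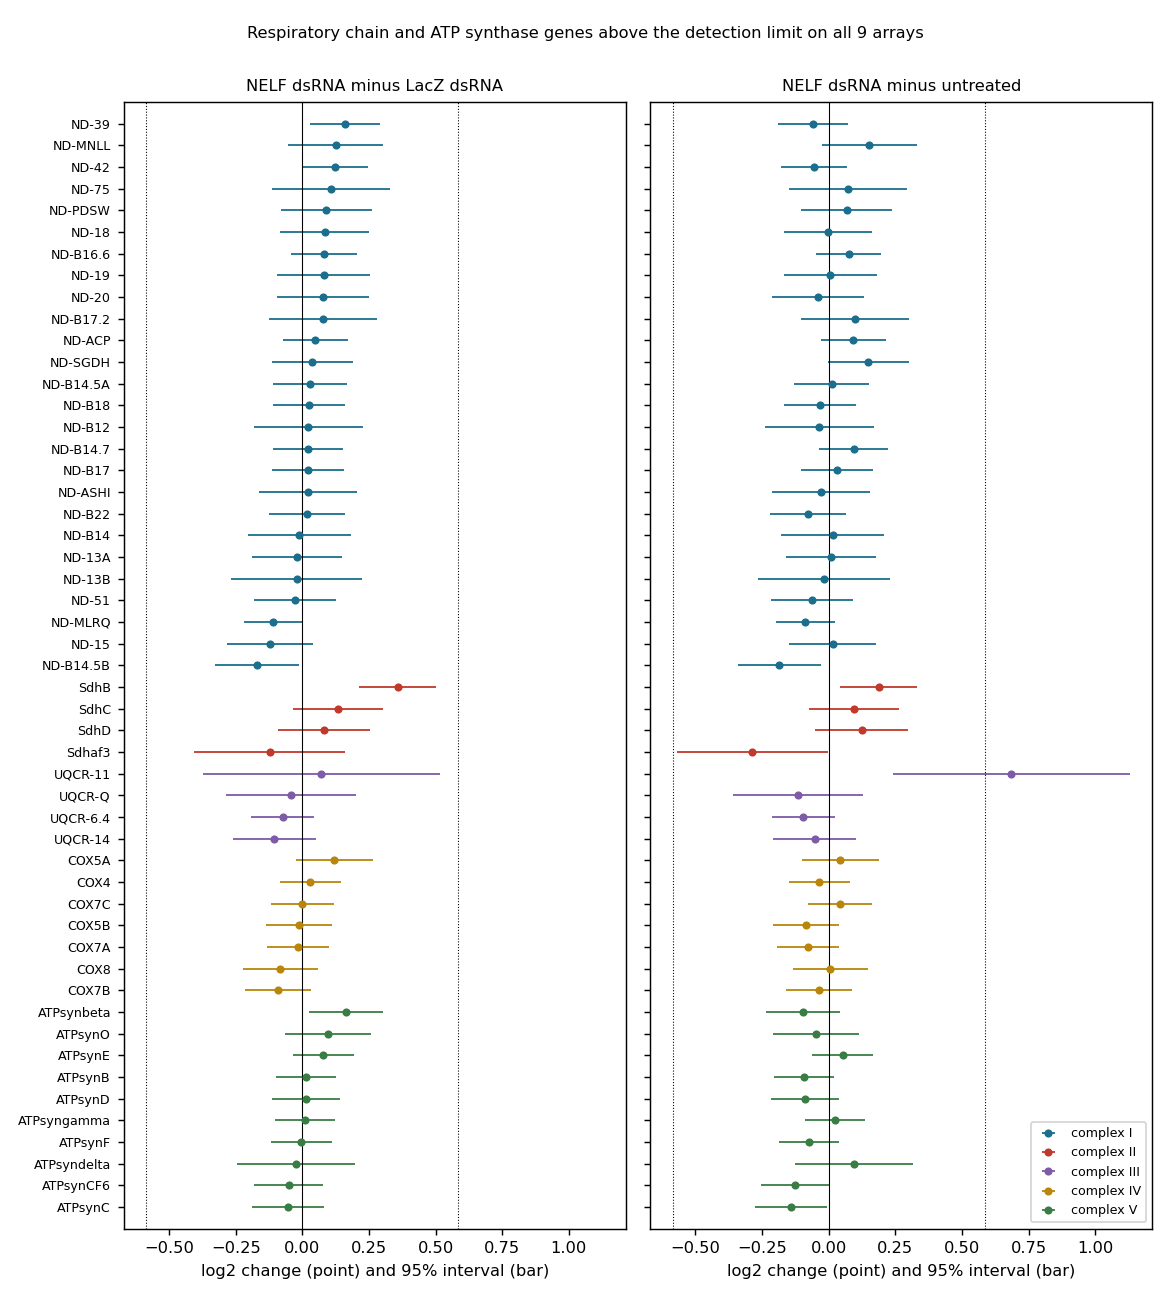
Log2 change (point) and 95% interval (bar) of the 51 genes detected on all 9 arrays, grouped and coloured by complex and ordered within it, for NELF dsRNA minus LacZ dsRNA on the left and NELF dsRNA minus untreated cells on the right, with dotted lines at 1.5-fold. SdhB at 0.36 lies farthest from 0 on the left, and UQCR-11 at 0.69 does so on the right, where its interval crosses the dotted line.

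The shares of genes with fully separated arrays lay below those of all detected probe sets in both comparisons of NELF dsRNA and above them for LacZ dsRNA against untreated cells, differences that were not tested. The 3 NELF dsRNA arrays did not overlap the 3 LacZ dsRNA arrays for 7 of the 51 genes (13.7%), where 26% of all detected probe sets were separated, 12.8% on the high side and 13.2% on the low side. The NELF dsRNA arrays were all higher for SdhB, ND-39, ND-42 and COX5A, and all lower for ND-B14.5B, ND-MLRQ and UQCR-6.4. Against untreated cells the NELF dsRNA arrays were separated for 15 genes (29.4%), 6 higher and 9 lower, where the background was 35.2%, with 17.1% higher and 18.1% lower. The LacZ dsRNA arrays were separated from untreated cells for 15 genes (29.4%), again 6 higher and 9 lower, where the background was 20.9%, with 9.68% higher and 11.2% lower. SdhB was on the high side of both control groups, and ND-B14.5B, ND-MLRQ and UQCR-6.4 were on the low side of both, with the NELF dsRNA arrays shared between those comparisons.

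Complex I is the largest of the complexes, with a matrix arm that oxidizes NADH and a membrane arm that pumps protons. Of its 31 genes, 26 were detected on all 9 arrays and 0 of 28 tested passed in any of the 3 comparisons. ND-75, named NDUFS1 in mammals and a core iron-sulphur subunit, read 7.95, 7.98 and 8.20 under NELF dsRNA, 7.76, 7.94 and 8.10 under LacZ dsRNA, and 7.99, 8.0 and 7.93 in untreated cells. ND-51, the mammalian NDUFV1 that binds NADH and flavin, read 9.16, 9.36 and 9.30 under NELF dsRNA, 9.28, 9.35 and 9.27 under LacZ dsRNA, and 9.40, 9.32 and 9.29 in untreated cells. The groups overlapped for both of these core subunits. Their log2 changes in NELF dsRNA against LacZ dsRNA were 0.11 (SE 0.10, limma adjusted p = 0.717) and -0.03 (SE 0.07, limma adjusted p = 0.912). ND-20, a further core subunit named NDUFS7 in mammals, changed by 0.08 (SE 0.08, limma adjusted p = 0.740). Core subunits outside the 31 genes were not analysed here.

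ND-39, the accessory subunit NDUFA9 of mammals, was highest among complex I genes in its change against LacZ dsRNA. It read 9.86, 9.83 and 9.86 under NELF dsRNA, 9.65, 9.77 and 9.66 under LacZ dsRNA, and 9.96, 9.86 and 9.91 in untreated cells. The LacZ dsRNA arrays were the low ones, below every array of the other groups. The log2 change was 0.16 in NELF dsRNA against LacZ dsRNA (SE 0.06, limma adjusted p = 0.217) and -0.22 in LacZ dsRNA against untreated cells (SE 0.06, limma adjusted p = 0.223), and neither passed. ND-42, the accessory subunit NDUFA10 of mammals, showed the same order, with 10.25, 10.32 and 10.36 under NELF dsRNA, 10.21, 10.22 and 10.14 under LacZ dsRNA, and 10.35, 10.37 and 10.37 in untreated cells. Its LacZ dsRNA arrays were again below all others, and its changes did not pass either.

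At the low end of complex I stood ND-B14.5B, the membrane-arm subunit NDUFC2 of mammals. It read 10.02, 10.13 and 10.13 under NELF dsRNA, 10.40, 10.22 and 10.17 under LacZ dsRNA, and 10.35, 10.31 and 10.19 in untreated cells. Every NELF dsRNA array was below every control array, with log2 changes of -0.17 against LacZ dsRNA (SE 0.07, limma adjusted p = 0.281) and -0.19 against untreated cells (SE 0.07, limma adjusted p = 0.186). ND-15, named NDUFS5 in mammals, read 10.03, 10.08 and 10.16 under NELF dsRNA, 10.38, 10.06 and 10.19 under LacZ dsRNA, and 10.05, 10.11 and 10.06 in untreated cells, and 1 LacZ dsRNA array stood above the rest. ND-MNLL, a membrane-arm subunit named NDUFB1 in mammals, stood instead at the high end of complex I, next below ND-39. Its log2 change against LacZ dsRNA was 0.13 (SE 0.08, limma adjusted p = 0.563). It read 9.85, 10.05 and 10.20 under NELF dsRNA, 9.91, 9.89 and 9.92 under LacZ dsRNA, and 9.93, 9.94 and 9.77 in untreated cells. Its NELF dsRNA arrays spread more widely than its LacZ dsRNA arrays and overlapped both control groups.

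For both arms of complex I the median change was near 0. The median log2 change in NELF dsRNA against LacZ dsRNA was 0.053 over 10 detected matrix-arm genes and 0.025 over 14 detected membrane-arm genes. Against untreated cells the medians were 0.0029 and 0.011. ND-MLRQ, which mammals assign to complex IV under the name NDUFA4, was lower on each NELF dsRNA array than on any control array, at 12.34, 12.39 and 12.37 under NELF dsRNA, 12.50, 12.45 and 12.49 under LacZ dsRNA, and 12.50, 12.47 and 12.40 in untreated cells. The differences were -0.11 against LacZ dsRNA and -0.09 against untreated cells on the log2 scale and did not pass. ND-ACP, the mitochondrial acyl carrier protein, had 3 detected probe sets with log2 changes of 0.05, -0.04 and 0.20 against LacZ dsRNA, which differ in sign and of which none passed. ND-B17 had a further detected probe set at 0.16 against LacZ dsRNA (SE 0.07), where its brightest gave 0.02 (SE 0.06). For LacZ dsRNA against untreated cells that further probe set gave -0.07 and the brightest 0.01, and neither passed in any comparison.

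Complex II is succinate dehydrogenase, which also acts in the tricarboxylic acid cycle. SdhB, the subunit whose iron-sulphur clusters carry electrons from the flavin subunit to the membrane anchors, read 10.37, 10.51 and 10.41 under NELF dsRNA, 10.08, 10.11 and 10.03 under LacZ dsRNA, and 10.36, 10.18 and 10.19 in untreated cells. All NELF dsRNA arrays were above all arrays of both control groups, and all LacZ dsRNA arrays were below all untreated ones. SdhB rose 1.28-fold in NELF dsRNA against LacZ dsRNA (log2 change 0.36, SE 0.07, 95% interval 0.21 to 0.50, limma adjusted p = 0.00442). Against untreated cells the log2 change was 0.19 (SE 0.07, limma adjusted p = 0.138), and for LacZ dsRNA against untreated cells it was -0.17 (SE 0.07, limma adjusted p = 0.404). Neither of these changes passed, and the called comparison is the one in which the LacZ dsRNA arrays were the low ones. Without a mean-variance trend in limma the call was lost (adjusted p = 0.115), and it held in the other 18 of 19 alternative settings.

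The membrane anchors SdhC and SdhD did not follow SdhB past the test. SdhC read 9.67, 9.67 and 9.85 under NELF dsRNA, 9.75, 9.53 and 9.50 under LacZ dsRNA, and 9.67, 9.65 and 9.58 in untreated cells. SdhD read 9.63, 9.66 and 9.67 under NELF dsRNA, 9.73, 9.48 and 9.50 under LacZ dsRNA, and 9.46, 9.67 and 9.47 in untreated cells. For both, LacZ dsRNA array 1 lay within or above the NELF dsRNA arrays, and the log2 changes against LacZ dsRNA were 0.13 for SdhC and 0.08 for SdhD (SE 0.08 each, limma adjusted p = 0.486 and 0.728). Sdhaf3, an assembly factor of complex II, read 7.18, 7.09 and 7.43 under NELF dsRNA, 7.54, 7.34 and 7.18 under LacZ dsRNA, and 7.69, 7.52 and 7.35 in untreated cells. Its groups overlapped, and its log2 change of -0.29 against untreated cells (SE 0.13, limma adjusted p = 0.274) was the lowest of the 51 detected genes in that comparison. SdhA, the flavin subunit, was not analysed here.

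**Figure D2:**
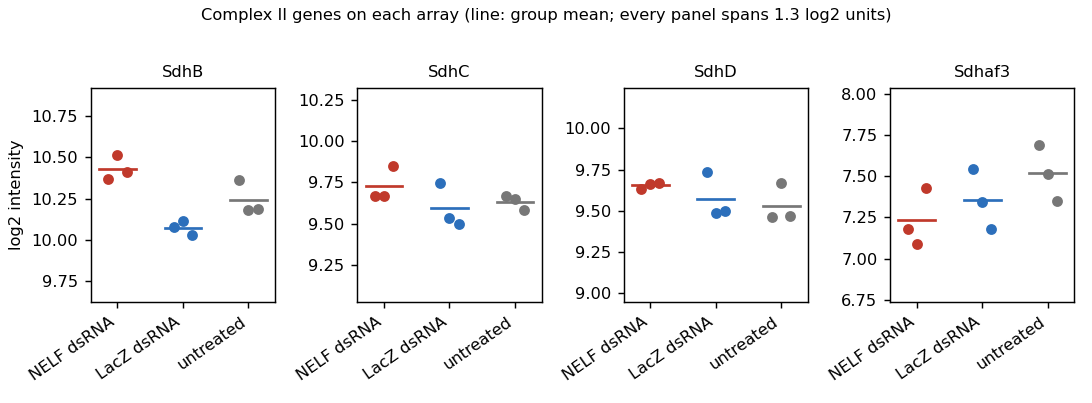
Log2 intensity of SdhB, SdhC, SdhD and Sdhaf3 on each of the 9 arrays (points), with the mean of each group of 3 arrays (lines) and NELF dsRNA, LacZ dsRNA and untreated cells from left to right. Each panel spans 1.3 log2 units, and only for SdhB do the NELF dsRNA arrays, between 10.37 and 10.51, lie above every control array.

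Complex III, the cytochrome bc1 complex, had 4 genes detected on all 9 arrays, and 0 of 4 tested passed. UQCR-11, the hinge subunit UQCRH of mammals, read 5.62, 5.85 and 5.85 under NELF dsRNA, 5.89, 5.65 and 5.57 under LacZ dsRNA, and 5.04, 4.90 and 5.32 in untreated cells. The arrays of both dsRNA groups were above all untreated arrays and overlapped each other. The log2 change was 0.69 in NELF dsRNA against untreated cells (SE 0.21, limma adjusted p = 0.0707) and 0.61 in LacZ dsRNA against untreated cells (SE 0.21, limma adjusted p = 0.306), while NELF dsRNA differed from LacZ dsRNA by 0.07 (SE 0.21, limma adjusted p = 0.920). Where only probe sets with a group mean above the detection limit were tested, the change against untreated cells passed (limma adjusted p = 0.0338).

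The remaining complex III genes had smaller changes than UQCR-11 against untreated cells. UQCR-14, named UQCRB in mammals, read 11.15, 11.12 and 11.23 under NELF dsRNA, 11.42, 11.20 and 11.20 under LacZ dsRNA, and 11.28, 11.29 and 11.10 in untreated cells. UQCR-6.4 read 11.81, 11.93 and 11.95 under NELF dsRNA, 11.97, 11.99 and 11.95 under LacZ dsRNA, and 11.98, 12.04 and 11.96 in untreated cells. UQCR-Q read 10.79, 10.50 and 10.90 under NELF dsRNA, 10.85, 10.57 and 10.89 under LacZ dsRNA, and 10.94, 10.97 and 10.62 in untreated cells. The NELF dsRNA arrays overlapped both control groups for UQCR-14 and UQCR-Q and lay just below them for UQCR-6.4, whose log2 change against LacZ dsRNA was -0.07 (SE 0.06, limma adjusted p = 0.629). The core protein gene UQCR-C1 was not analysed here.

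Complex IV, cytochrome c oxidase, had 7 of its 14 genes detected on all 9 arrays, with the smallest spread of the 5 complexes (median SD within groups 0.052). COX4 read 11.54, 11.64 and 11.65 under NELF dsRNA, 11.60, 11.58 and 11.55 under LacZ dsRNA, and 11.67, 11.63 and 11.63 in untreated cells. COX5A read 11.75, 11.77 and 11.72 under NELF dsRNA, 11.61, 11.58 and 11.68 under LacZ dsRNA, and 11.66, 11.86 and 11.59 in untreated cells. The NELF dsRNA arrays of COX5A were above the LacZ dsRNA arrays and within the range of untreated cells, with a log2 change of 0.12 against LacZ dsRNA (SE 0.07, limma adjusted p = 0.461). COX7B read 11.57, 11.62 and 11.76 under NELF dsRNA, 11.73, 11.74 and 11.75 under LacZ dsRNA, and 11.69, 11.69 and 11.68 in untreated cells. COX8 read 11.76, 11.72 and 11.94 under NELF dsRNA, 11.98, 11.84 and 11.85 under LacZ dsRNA, and 11.79, 11.79 and 11.83 in untreated cells. These subunits are all encoded in the nucleus, and for COX7B and COX8 NELF dsRNA array 3 was the highest of its group. That array lay above every control array for COX7B and within the range of the LacZ dsRNA arrays for COX8. The 7 detected genes ran from -0.09 to 0.12 in NELF dsRNA against LacZ dsRNA and from -0.08 to 0.04 against untreated cells, and for all 7 the 95% interval lay within 1.25-fold in each of the 3 comparisons.

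The ATP synthase joins a catalytic head and a central stalk to a membrane rotor, held by a peripheral stalk. Of its 14 genes, 10 were detected on all 9 arrays and 0 of 14 tested passed in any comparison. ATPsynbeta, the catalytic subunit of the head, read 12.36, 12.38 and 12.27 under NELF dsRNA, 12.17, 12.29 and 12.06 under LacZ dsRNA, and 12.50, 12.36 and 12.43 in untreated cells. The LacZ dsRNA arrays were all below the untreated ones, and the NELF dsRNA arrays overlapped both. The log2 change was 0.16 in NELF dsRNA against LacZ dsRNA (SE 0.07, limma adjusted p = 0.237) and -0.26 in LacZ dsRNA against untreated cells (SE 0.07, limma adjusted p = 0.155). A further detected probe set of ATPsynbeta gave 0.04 and 0.02 for the same comparisons, so its probe sets differ in sign for LacZ dsRNA against untreated cells.

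ATPsynC, which forms the proton-carrying ring of the rotor, read 11.36, 11.22 and 11.31 under NELF dsRNA, 11.33, 11.39 and 11.34 under LacZ dsRNA, and 11.53, 11.32 and 11.47 in untreated cells. ATPsynCF6, coupling factor 6 of the peripheral stalk, read 11.60, 11.71 and 11.81 under NELF dsRNA, 11.80, 11.71 and 11.76 under LacZ dsRNA, and 11.83, 11.85 and 11.82 in untreated cells. ATPsynO, the oligomycin sensitivity conferring protein of that stalk, read 11.53, 11.51 and 11.62 under NELF dsRNA, 11.61, 11.49 and 11.27 under LacZ dsRNA, and 11.63, 11.58 and 11.60 in untreated cells. The groups overlapped for ATPsynC and ATPsynO, and the arrays of ATPsynCF6 were below the untreated arrays in both dsRNA groups. The median log2 change of the 10 detected genes was 0.012 in NELF dsRNA against LacZ dsRNA, -0.081 in NELF dsRNA against untreated cells and -0.081 in LacZ dsRNA against untreated cells. In those last comparisons 7 and 8 of the 10 genes were below 0, against 3494 and 3744 of all 6929 detected probe sets. ATPsynB, ATPsynCF6 and ATPsynF were separated from the untreated arrays on the low side under both kinds of dsRNA. On that side 4 of the 10 genes were separated in each comparison, against 18.1% and 11.2% of all detected probe sets. Both comparisons share the untreated arrays, and these differences were not tested. ATPsyngamma, the rotor shaft, read 12.26, 12.25 and 12.26 under NELF dsRNA, 12.18, 12.31 and 12.26 under LacZ dsRNA, and 12.25, 12.20 and 12.25 in untreated cells, and its groups overlapped. A further detected probe set of ATPsyngamma changed by 0.08 in NELF dsRNA against LacZ dsRNA and by -0.13 in LacZ dsRNA against untreated cells (SE 0.05 each), against 0.01 for the brightest probe set in both, and none passed.

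**Figure D3:**
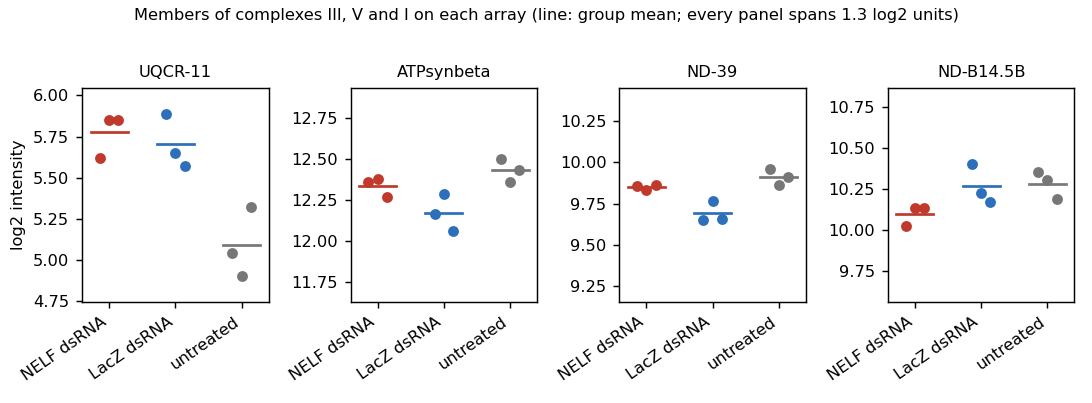
Log2 intensity of UQCR-11 (complex III), ATPsynbeta (complex V), ND-39 and ND-B14.5B (complex I) on each array (points), with the mean of each group of 3 arrays (lines) and NELF dsRNA, LacZ dsRNA and untreated cells from left to right. Each panel spans 1.3 log2 units: UQCR-11 is low in untreated cells (4.90 to 5.32), ATPsynbeta and ND-39 are lowest under LacZ dsRNA, and ND-B14.5B is lowest under NELF dsRNA (10.02 to 10.13).

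The genes divided sharply by detection. Of the 72, 20 carry the name of another subunit plus L, and these like copies are paralogs of subunit genes, several of them known for expression in the testis. Of the 20, 0 were detected on all 9 arrays, 12 were never detected and 8 were detected on some, against 51 of the other 52 genes detected on all 9. COX4L was detected on 7 arrays, ATPsynepsilonL on 6, ND-B14.5AL on 3, SdhAL and COX7AL2 on 2, and COX6AL, ATPsynCF6L and ATPsynGL on 1. COX4L read 3.82, 4.42 and 2.47 under NELF dsRNA, 3.82, 3.36 and 3.98 under LacZ dsRNA, and 4.06, 4.22 and 4.54 in untreated cells, around the detection limit of 3.77. ND-B14.5AL read 4.62, 4.42 and 3.32 under NELF dsRNA, 3.30, 3.81 and 1.74 under LacZ dsRNA, and 2.37, 3.69 and 3.70 in untreated cells, and its groups overlapped. Of the 12 copies tested in NELF dsRNA against LacZ dsRNA, 0 passed with limma, and 1 had an unadjusted p under 0.05. COX7AL, never detected, passed against untreated cells without untreated replicate 1 (limma adjusted p = 0.0252; 0.127 with it). Of the genes that are no copies, the exception was ND-B8, measured on 2 arrays and detected on none. Cross-hybridization between a copy and its parent gene was not tested.

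The median of the subunit genes differed more between arrays of a group than between the groups. Set against each gene's mean over the 9 arrays, the 51 detected genes had a median deviation of 0.069 on the third NELF dsRNA array and -0.056 on the first, and of 0.060 on the first LacZ dsRNA array and -0.063 on the third. The untreated arrays lay between -0.013 and 0.034. Over all 6929 detected probe sets the same medians lay between -0.0059 and 0.013. NELF dsRNA array 3 gave the highest value of its group for 40 of the 51 genes (78.4%), against 35.1% of all detected probe sets, and LacZ dsRNA array 1 did so for 37 genes (72.5%), against 36.9%. For complex I alone the count was 21 of 26 (80.8%) on each of these arrays. Both arrays also had the fewest measured probe sets of all, 13854 and 13935. Their deviations from the group means correlated at 0.19 over all probe sets measured on 9 arrays. The part of array quality in these shifts was not tested.

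Without NELF dsRNA array 3 and LacZ dsRNA array 1, the median of the 51 genes was 0.019 in NELF dsRNA against LacZ dsRNA, as close to 0 as with them. Against untreated cells it was -0.063 for NELF dsRNA, with 36 of 51 genes below 0, and -0.075 for LacZ dsRNA, with 38 below 0. Over all 6929 detected probe sets the medians without these arrays were 0.0016 for NELF dsRNA and -0.0085 for LacZ dsRNA, with 3449 and 3593 below 0. With all arrays the medians of the 51 genes were -0.017 and -0.036. Both arrays were singled out because these genes were highest on them. Lower medians against untreated cells without them therefore follow from that choice and are no separate result. SdhB still passed without both (log2 change 0.37, limma adjusted p = 0.0188).

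**Figure D4:**
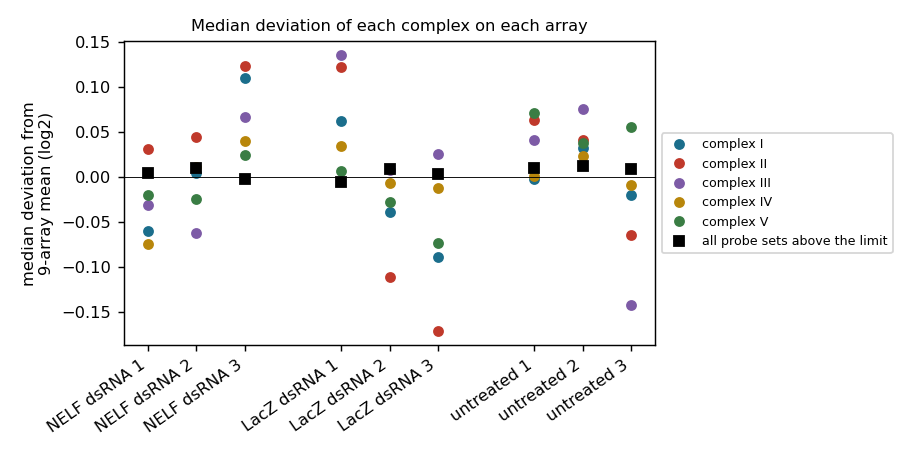
Median deviation from the 9-array mean (log2) of the detected genes of each complex (coloured points) and of all 6929 detected probe sets (black squares), by array, with NELF dsRNA, LacZ dsRNA and untreated cells from left to right. Complex I stands at 0.11 on NELF dsRNA array 3 and at -0.088 on LacZ dsRNA array 3, while the squares stay between -0.0059 and 0.013.

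Other genes of mitochondrial energy metabolism were counted from lists, which were chosen with earlier results of these data known. Respiratory subunits and carriers whose symbols lie outside the naming rule, such as RFeSP (the Rieske protein), Cyt-c1 and the ATP synthase gene blw, gave 0 of 7 genes past the test in any comparison, and their log2 changes against LacZ dsRNA ran from -0.22 for ox to -0.02 for RFeSP. Without NELF dsRNA replicate 3, ox passed against LacZ dsRNA (-0.30, limma adjusted p = 0.0233), and without LacZ dsRNA replicate 1, Cyt-c1 passed against untreated cells (-0.16, limma adjusted p = 0.0490). Genes for factors that build the complexes were counted next. Of 12 tested assembly and iron-sulphur cluster factors, 4 rose and 0 fell in NELF dsRNA, both against LacZ dsRNA and against untreated cells, with a median log2 change of 0.14 against LacZ dsRNA and 0.16 against untreated cells. Of all probe sets tested, 1.85% were called higher and 2.71% lower against LacZ dsRNA, and 2.63% higher and 3.53% lower against untreated cells. Of those detected on all 9 arrays, 7.82% and 10.5% were called in the same comparisons. No test compared this list with the subunits, and both comparisons share the NELF dsRNA arrays. The counts beside these shares are a description of a chosen list and not a test of it.

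Nfs1, the cysteine desulfurase that supplies sulphur for iron-sulphur clusters, read 10.26, 10.33 and 10.33 under NELF dsRNA, 9.76, 9.91 and 9.76 under LacZ dsRNA, and 9.84, 9.91 and 9.97 in untreated cells. IscU, the scaffold on which those clusters form, read 10.81, 10.84 and 10.64 under NELF dsRNA, 10.43, 10.43 and 10.41 under LacZ dsRNA, and 10.29, 10.38 and 10.13 in untreated cells. All NELF dsRNA arrays were above all control arrays for both genes. Nfs1 rose by a log2 change of 0.50 against LacZ dsRNA (SE 0.07, limma adjusted p = 0.000207) and 0.40 against untreated cells (SE 0.07, limma adjusted p = 0.00123). IscU rose by 0.34 against LacZ dsRNA (SE 0.07, limma adjusted p = 0.0125) and 0.50 against untreated cells (SE 0.07, limma adjusted p = 0.000461). Its call against LacZ dsRNA was lost without NELF dsRNA replicate 1 (log2 change 0.31, limma adjusted p = 0.0559) or 2 (0.30, limma adjusted p = 0.0679), with empty cells set to the 10th percentile of all values and without the mean-variance trend, and held in the other 15 of 19 alternatives.

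Ttc19, which in mammals helps complex III to mature, read 6.93, 7.45 and 7.18 under NELF dsRNA, 6.51, 6.45 and 6.20 under LacZ dsRNA, and 6.26, 6.46 and 6.24 in untreated cells. Cox17, the copper chaperone of complex IV, read 10.27, 10.33 and 10.46 under NELF dsRNA, 10.10, 9.90 and 9.96 under LacZ dsRNA, and 10.04, 10.03 and 9.98 in untreated cells. The NELF dsRNA arrays were again above every control array. Ttc19 rose by 0.80 against LacZ dsRNA (SE 0.16, limma adjusted p = 0.00568) and 0.87 against untreated cells (SE 0.16, limma adjusted p = 0.00258), and Cox17 rose by 0.36 (SE 0.07, limma adjusted p = 0.00514) and 0.34 (SE 0.07, limma adjusted p = 0.00770). The complex IV factors Scox, Surf1, Cox10 and Cox11 had log2 changes of 0.04, -0.06, 0.13 and 0.12 against LacZ dsRNA and did not pass. Without the mean-variance trend, of the 4 factors only Nfs1 passed against LacZ dsRNA, and only IscU and Ttc19 against untreated cells.

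Among 7 tested carriers and pores of the mitochondrial membranes, Ant2 had the highest change. It encodes an adenine nucleotide translocase, which exchanges ADP and ATP, and it read 7.40, 7.40 and 7.47 under NELF dsRNA, 6.66, 6.46 and 6.42 under LacZ dsRNA, and 6.41, 6.55 and 6.44 in untreated cells. The NELF dsRNA arrays were above all control arrays, and Ant2 rose 1.88-fold against LacZ dsRNA (log2 change 0.91, SE 0.12, limma adjusted p = 0.000244) and 1.94-fold against untreated cells (log2 change 0.96, SE 0.12, limma adjusted p = 0.000127). The related translocase sesB had a log2 change of 0.21 against LacZ dsRNA (limma adjusted p = 0.0990) and 0.12 against untreated cells (limma adjusted p = 0.390). Porin, the channel of the outer membrane (symbol porin), read 11.27, 11.35 and 11.23 under NELF dsRNA, 11.52, 11.46 and 11.44 under LacZ dsRNA, and 11.71, 11.65 and 11.61 in untreated cells. It fell in NELF dsRNA against untreated cells (log2 change -0.37, SE 0.06, limma adjusted p = 0.00059) and did not pass against LacZ dsRNA (log2 change -0.19, SE 0.06, limma adjusted p = 0.0745), with the LacZ dsRNA arrays in between.

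Of 10 tested genes in the tricarboxylic acid cycle list, 1 rose and 1 fell in NELF dsRNA against LacZ dsRNA and 0 passed against untreated cells, where 7.82% and 10.5% of detected probe sets were called. Ogdh, which encodes the first enzyme of the 2-oxoglutarate dehydrogenase step, read 9.97, 9.92 and 9.90 under NELF dsRNA, 10.23, 10.29 and 10.42 under LacZ dsRNA, and 10.17, 10.06 and 10.20 in untreated cells. Idh, an isocitrate dehydrogenase that uses NADP and so is not the enzyme of the main cycle, read 10.43, 10.57 and 10.21 under NELF dsRNA, 9.95, 10.00 and 10.18 under LacZ dsRNA, and 10.02, 10.18 and 10.20 in untreated cells. The NELF dsRNA arrays were below every control array for Ogdh and above every one for Idh, and the log2 changes against LacZ dsRNA were -0.38 for Ogdh (SE 0.07, limma adjusted p = 0.00235) and 0.36 for Idh (SE 0.09, limma adjusted p = 0.0359). The call of Idh was lost in 9 of 19 alternative settings, among them without NELF dsRNA replicate 1 (limma adjusted p = 0.103) or 2 (0.169) and without LacZ dsRNA replicate 1 (0.0844) or 2 (0.126), and that of Ogdh was lost without the mean-variance trend. The subunits of the NAD-dependent enzyme of the cycle, Idh3a, Idh3b and Idh3g, had log2 changes of 0.001, -0.10 and 0.12 against LacZ dsRNA and did not pass. Against untreated cells Ogdh, Idh3a and Idh3b passed without LacZ dsRNA replicate 1 (limma adjusted p = 0.0458, 0.0445 and 0.0256), an array that enters that comparison through the shared estimate of the spread, and Idh passed without NELF dsRNA replicate 3 (log2 change 0.37, limma adjusted p = 0.0268).

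Further lists covered pyruvate and electron entry, mitochondrial DNA maintenance and transcription, and regulators of mitochondrial genes. In these, 0 of 6, 0 of 10 and 0 of 6 genes passed in any comparison. Of all detected probe sets, 7.82% were called in NELF dsRNA against LacZ dsRNA and 10.5% in NELF dsRNA against untreated cells. In LacZ dsRNA against untreated cells 0.101% were called. Lists this short with 0 calls are not set apart from those shares. TFAM, which packages mitochondrial DNA, had a log2 change of 0.02 against LacZ dsRNA (limma adjusted p = 0.943). The regulator nearest to the threshold was ewg, the fly relative of the mammalian factor NRF1, at -0.49 against LacZ dsRNA (limma adjusted p = 0.0555), and it passed without NELF dsRNA replicate 1 (-0.60, limma adjusted p = 0.0368). None of the 7 lists held a gene that passed when LacZ dsRNA was set against untreated cells with limma.

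**Figure D5:**
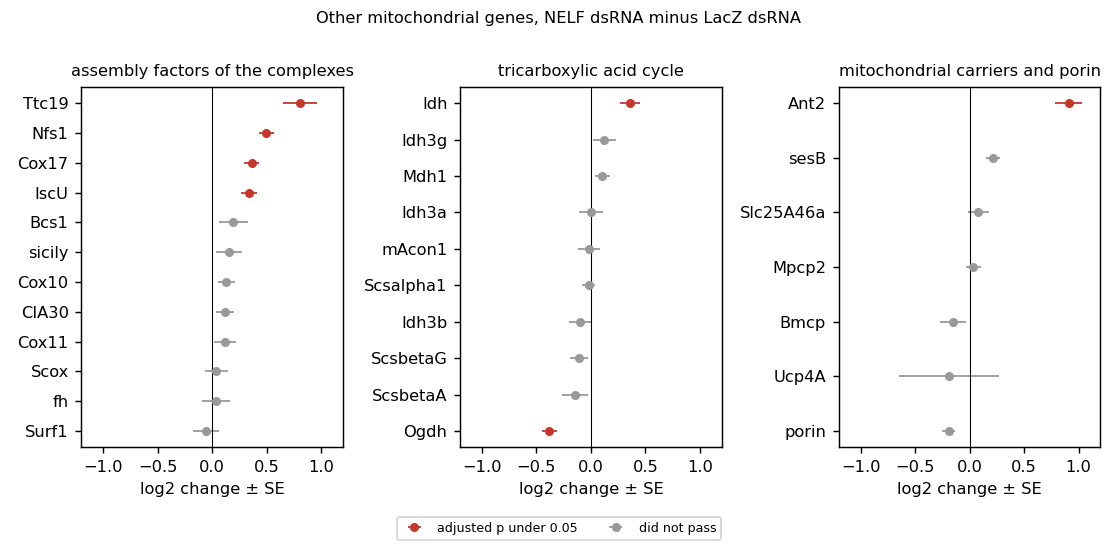
Log2 change of NELF dsRNA minus LacZ dsRNA (point) with its standard error (bar) for the tested genes of 3 lists: assembly factors, the tricarboxylic acid cycle, and mitochondrial carriers with porin. Genes with an adjusted p under 0.05 are red: Ttc19, Nfs1, Cox17, IscU, Idh and Ant2 to the right of 0, from 0.34 to 0.91, and Ogdh at -0.38 to the left.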

How the data were processed

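RNA of S2 cells was measured on 9 single-channel Affymetrix Drosophila Genome 2.0 arrays, in 3 groups of 3 taken from the sample labels. Per the labels' protocols, cRNA was amplified from 1 µg of total RNA by a 3′ protocol, and each array was hybridized with 10 µg for 16 h. The series' design text names Rosetta Resolver 6.0 beside GeneChip Operating Software 1.2.0.037. The authors deposited 1 value per probe set and array, read here as log2 intensity from its range (-16.3 to 13.6). How probes were summarized and arrays normalized: not given in the sources used here. Array medians lay within 0.025 of each other, so no normalization was added. Of all cells, 21.2% were empty and kept as missing.

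Gene names came from the platform annotation, in which 13086 of 17899 probe sets had 1 gene. All 72 symbols studied matched a RefSeq gene table. Groups were compared with limma 3.58.1 in R 4.3.3 (lmFit with a mean per group, eBayes with a mean-variance trend on all 9 arrays), over probe sets with at least 2 values in both groups, with Benjamini-Hochberg adjustment over all of them and a threshold of 0.05. The method was tested on simulated arrays without empty cells and with larger changes than the detected genes showed. That run cannot say how well changes as small as theirs are found. Values per array are given for genes past the threshold, for the 2 highest and 2 lowest changes against LacZ dsRNA among the detected genes of each complex, for named core subunits, and for some whose groups did not overlap. Array values of ND-42, ND-MLRQ, ATPsyngamma, COX4L and ND-B14.5AL, and the list genes named without a call, were chosen after their values were seen. The genes and lists were chosen with earlier results of these data known. Alternatives covered the variance trend, normalization, empty cells, filters, the probe set of a gene, the replicate block, the arrays fitted and the control group. No scan dates were used and no batch was tested. No sequences or coordinates are given.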

Additional observations from a re-analysis of the deposited data

How the results depend on the processing

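In NELF dsRNA against LacZ dsRNA, SdhB passed in 18 of 19 alternatives (log2 change 0.27 to 0.39, limma adjusted p 0.00375 to 0.115), and the number of respiratory chain and ATP synthase genes called was 0 without the mean-variance trend, where 228 of all probe sets were called, against 592 with it (range over the alternatives 228 to 743). In NELF dsRNA against untreated cells, 1 gene passed where only probe sets with a group mean above the detection limit were tested (UQCR-11), and 0 to 1 passed when 1 array was left out, the 1 being COX7AL without untreated replicate 1. Calls over all probe sets in that comparison ranged from 356 to 996 over the alternatives. The median change of the detected genes stayed near 0 and changed sign between alternatives, from -0.020 to 0.068 against LacZ dsRNA, from -0.063 to 0.021 for NELF dsRNA against untreated cells, and from -0.075 to 0.0016 for LacZ dsRNA against untreated cells. At the 99th percentile of the control probe sets (13.3), which include bright spike-in controls, 0 of the genes were detected, and at the 90th 51 were. Replicate numbers did not pair the arrays, and not every array correlated best with its own number. Deviations of same-numbered NELF and LacZ dsRNA arrays correlated at -0.11, 0.10 and -0.07. The highest correlation between arrays of different groups was 0.19, for NELF dsRNA array 3 and LacZ dsRNA array 1. With a replicate block, SdhB still passed (0.36, limma adjusted p = 0.0119) and 1 gene of the tricarboxylic acid cycle list passed in place of 2, while no other count of calls reported here moved by over 1.5 times.

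Among the other lists, without the mean-variance trend 1 assembly factor (Nfs1) passed against LacZ dsRNA and 2 (IscU, Ttc19) against untreated cells, and 0 genes of the tricarboxylic acid cycle list passed. That list gave 1 call (Ogdh) against LacZ dsRNA with empty cells at a floor, with gene means over all probe sets and with only the compared groups, and 1 to 2 when 1 array was left out. Against untreated cells it gave 2 (Idh3b, Ogdh) with only the compared groups, 1 (Idh) without NELF dsRNA replicate 3 and LacZ dsRNA replicate 1, and 0 to 3 when 1 array was left out, the 3 being Idh3a, Idh3b and Ogdh without LacZ dsRNA replicate 1. Carriers gave 2 (Ant2, porin) against LacZ dsRNA under quantile normalization, the filter on dim probe sets and all 6 control arrays together. Regulators gave 1 (ewg) with all 3 values required and under the dim filter, and 0 to 1 when 1 array was left out. Mitochondrial DNA genes gave 1 (mtDNA-helicase) against untreated cells under the dim filter and without both arrays, and the subunits outside the naming rule gave 1 (ox) without both arrays and 0 to 1 when 1 array was left out, both against LacZ dsRNA (ox, without NELF dsRNA replicate 3) and against untreated cells (Cyt-c1, without LacZ dsRNA replicate 1). The causes of these changes were not tested. Below the detection limit the like copies could not be compared with any precision: ATPsynGL, for one, had a 95% interval from -3.02 to 1.42 against LacZ dsRNA.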

Other observations

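Further subunit genes were measured by probe sets that the annotation assigns to a pair of genes each, so their signal cannot be given to one of them. The probe set for CG18809 and COX6B was detected on 9 arrays and averaged 11.85 under NELF dsRNA, 11.84 under LacZ dsRNA and 11.84 in untreated cells. The one for ATPsynG and beat-Vb averaged 11.56 under NELF dsRNA, 11.56 under LacZ dsRNA and 11.47 in untreated cells, and the one for CG40472 and ND-AGGG averaged 9.68 under NELF dsRNA, 9.72 under LacZ dsRNA and 9.62 in untreated cells. The probe set for COX6AL2 and Ir75d was detected on 8 arrays and averaged 4.91 under NELF dsRNA, 4.71 under LacZ dsRNA and 5.30 in untreated cells. COX6AL2 is also among the 72 genes through a probe set of its own, which was measured on 1 array and never detected. Of these 4 shared probe sets, 0 passed in any comparison with limma.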
